A study of Mus musculus with 6 samples.

Results

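Conventional dendritic cells are described here through 8 genes that mark them: the transcription factor genes Zbtb46, Irf4 and Batf3, the surface receptor genes Itgax, Cd24a, Clec9a and Cd209a, and the actin-bundling gene Fscn1. The members were chosen by symbol with earlier results of these data known, and a probe set counted for a member when the platform annotation gave that symbol alone. Of the 8 genes 7 were named on the array, by 16 probe sets, and 6 passed the minimum level and were tested, out of 10302 genes tested in all. Cd209a lay under the minimum on every array and Clec9a was not analysed here. The 6 arrays were compared, 3 labelled Gata3+/-, with 1 intact copy of the gene for the transcription factor GATA3, and 3 labelled Gata3-/-, with none. Both groups were mouse embryonic stem cells differentiated on OP9 and OP9-DL1 stroma, marrow stromal cells of which the latter carry the Notch ligand DL1, in medium with IL-7 and Flt3L, and sorted as progenitors of the T lineage. Both groups thus carried at least 1 disrupted copy, no array of Gata3+/+ cells is analysed here, and neither the disrupted part of the gene, nor the number of stem cell clones, nor the sort markers are given in the sources used here. The labels call the replicates biological without saying whether the cultures were separate, so each p-value here reflects array-to-array spread that may be technical.

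Conventional dendritic cells take up antigen, carry it to lymph nodes and present it to T cells. They arise from Flt3-dependent precursors and fall into a cDC1 branch, which needs IRF8 and BATF3 and cross-presents antigen to CD8 T cells, and a cDC2 branch, which relies on IRF4 and presents mainly to CD4 T cells. ZBTB46 is a zinc finger factor that separates conventional dendritic cells from plasmacytoid dendritic cells and most macrophages. On maturation, dendritic cells of both branches raise CCR7, costimulatory ligands and fascin, the product of Fscn1.

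Most measured members lay higher in Gata3-/- arrays, and the cDC1 factor gene Batf3 lay lower. Levels are log2 GC-RMA intensities, in which background is corrected by probe sequence and the arrays are normalized together, and a value of 4 was taken as the minimum for a measurable probe set. Zbtb46 rose 3.70-fold and Cd24a rose 2.46-fold (limma, adjusted p = 0.0485 and 0.0445). The other 4 tested members did not pass the threshold of 0.05. The 2 calls in 6 tested members stand beside a background in which 5.27% of all tested genes were called in either direction and 2.86% were called higher. The genotypes did not overlap for 4 members higher and 1 lower in Gata3-/- arrays, where 16.9% and 16.7% of all genes tested did the same. The median difference was 1.23 for the 6 tested members and -0.02 for all genes tested, on the log2 scale. In these sorted populations more cells of a type and more RNA per cell cannot be told apart. Both calls were lost when any 1 array was left out, with adjusted p from 0.0897 to 0.122 for Zbtb46 and from 0.0794 to 0.124 for Cd24a. Both were also lost without the minimum level (0.137 and 0.117), and that of Zbtb46 when the probe sets of a gene were averaged (0.0536).

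**Figure D1:**
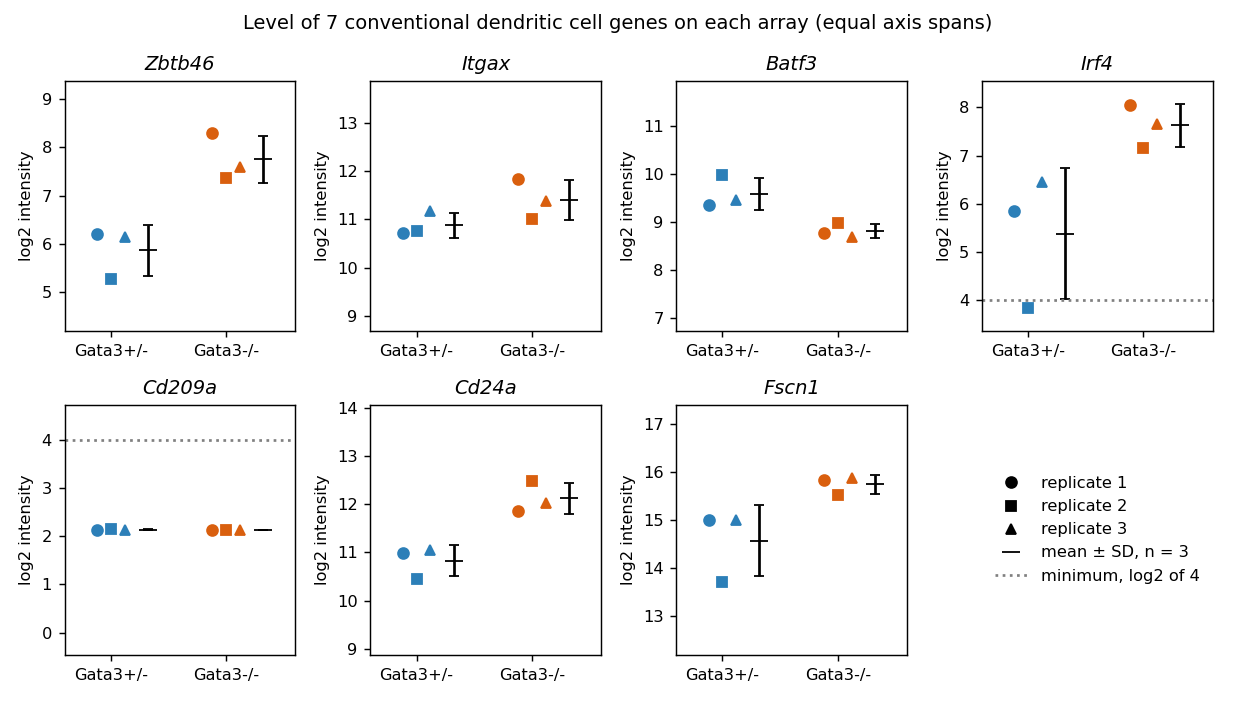
The log2 intensity of the representative probe set of 7 members is plotted for each array, with Gata3+/- arrays in blue, Gata3-/- arrays in orange, replicates by symbol, and the mean and SD of 3 arrays in black; every vertical axis spans the same range and the dotted line is the minimum. All Gata3-/- points lie above all Gata3+/- points for Zbtb46, Irf4, Cd24a and Fscn1, and below them for Batf3. For Itgax the second Gata3-/- array lies among the Gata3+/- points and the others lie above them, while Cd209a stays near 2.14 throughout.

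Windows around an annotated start, called promoters here, were found in RefSeq (GRCm38.p6) for 7 of the 8 members. Cd24a, the member without such a window, also lay higher on every Gata3-/- array. The windows of Zbtb46, Irf4 and Fscn1 are shown because these genes lay higher on every Gata3-/- array than on any Gata3+/- array, and that of Batf3 because it lay lower. Each runs 5′ to 3′ from 250 bases before to 50 bases after the annotated start, and capitals mark matches to 8 short motifs searched on both strands. The motifs were chosen after the sequences had been seen.
Zbtb46 (chr2:181424339-181424638, minus strand): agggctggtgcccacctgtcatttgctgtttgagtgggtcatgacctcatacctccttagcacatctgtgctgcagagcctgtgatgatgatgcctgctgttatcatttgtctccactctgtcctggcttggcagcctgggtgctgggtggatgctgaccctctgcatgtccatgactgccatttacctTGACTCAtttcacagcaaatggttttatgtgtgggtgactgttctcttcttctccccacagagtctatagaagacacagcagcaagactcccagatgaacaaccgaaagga
Irf4 (chr13:30748983-30749282, plus strand): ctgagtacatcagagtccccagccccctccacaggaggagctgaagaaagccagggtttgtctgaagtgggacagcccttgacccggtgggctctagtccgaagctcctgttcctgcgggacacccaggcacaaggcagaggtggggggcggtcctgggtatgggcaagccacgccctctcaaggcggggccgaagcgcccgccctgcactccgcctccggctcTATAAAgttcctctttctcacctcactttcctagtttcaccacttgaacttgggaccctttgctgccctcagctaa
Fscn1 (chr5:142960105-142960404, plus strand): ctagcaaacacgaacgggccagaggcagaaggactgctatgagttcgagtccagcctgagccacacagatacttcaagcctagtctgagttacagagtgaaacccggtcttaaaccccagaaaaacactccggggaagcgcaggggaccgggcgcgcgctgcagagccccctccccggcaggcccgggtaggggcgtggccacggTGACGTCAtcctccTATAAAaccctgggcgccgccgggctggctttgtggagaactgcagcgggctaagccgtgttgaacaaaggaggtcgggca
Batf3 (chr1:191098164-191098463, plus strand): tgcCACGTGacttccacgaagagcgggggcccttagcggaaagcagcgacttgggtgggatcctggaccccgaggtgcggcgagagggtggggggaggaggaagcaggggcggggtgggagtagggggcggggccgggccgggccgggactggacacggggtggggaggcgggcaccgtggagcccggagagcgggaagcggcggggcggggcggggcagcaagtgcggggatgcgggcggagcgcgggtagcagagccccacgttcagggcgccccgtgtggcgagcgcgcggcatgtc

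The letters found differed from member to member, and none of the 8 motifs was shared by all 4 windows. An AP-1 motif, TGANTCA, began at position -61 from the annotated start of Zbtb46, and another began at -56 in the promoter of Itgax, which is not shown. This motif was present in 7.81% of the 32851 promoters of the same length. TATAAA began at -26 in Irf4 and at -31 in Fscn1 (13.6% of promoters), and Fscn1 also held the cyclic AMP response element TGACGTCA at -45 (1.79%). Batf3 held the E-box CACGTG at -247 (7.15%). The GATA motif AGATAA was present in the Itgax window at -217 and in 11.2% of promoters. The PU.1-like GAGGAAGT (3.20% of promoters) had no match in any of the 7 windows. The interferon regulatory factor motif GAAANNGAA and the composite ETS-IRF motif GGAANNGAA (8.56% and 8.24%) had no match in the 4 windows shown or in Itgax. The former matched in Clec9a at -2 and the latter in Cd209a at -152 and -8, and TATAAA matched on the minus strand at -184 in Cd209a and -226 in Clec9a. In the Zbtb46 window the bases ttctcttcttctccccacag stand directly before the annotated start, the form of the end of an intron. That start may therefore be an exon boundary, and its AP-1 match may not lie in a promoter. All of these are matches of letters around annotated starts, which were not checked in these cells.

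Zbtb46, the factor most restricted to conventional dendritic cells among the members, rose in Gata3-/- arrays. Its representative probe set 1429168_at stood at 6.21, 5.26 and 6.13 in Gata3+/- arrays 1, 2 and 3 and at 8.30, 7.37 and 7.58 in Gata3-/- arrays. The lowest Gata3-/- array stood 1.16 above the highest Gata3+/- array, and array 2 was the lowest of each genotype. The log2 difference was 1.89 (SE 0.35, 95% interval 1.01 to 2.76, limma adjusted p = 0.0485). A further probe set, 1454884_at, stood at 5.93, 4.47 and 6.23 against 8.39, 7.22 and 7.90, a difference of 2.30 (SE 0.54, adjusted p = 0.0731 with limma), which did not pass. The 2 remaining probe sets of the gene never reached the minimum on any array.

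Irf4, the factor on which the cDC2 branch relies, gave the largest fitted difference among the representative probe sets of the members without passing the test. Probe set 1421173_at stood at 5.85, 3.84 and 6.45 in Gata3+/- arrays and at 8.06, 7.16 and 7.66 in Gata3-/- arrays. The genotypes did not overlap, but the second Gata3+/- array lay under the minimum and widened the spread of its group to an SD of 1.37, against 0.45 in Gata3-/- arrays. The log2 difference was 2.25 (SE 0.70, 95% interval 0.52 to 3.98, limma adjusted p = 0.129), and without that array it was 1.48 (adjusted p = 0.128). The dimmer probe set 1421174_at stood at 4.46, 3.68 and 4.45 against 5.29, 5.07 and 5.53, a difference of 1.10 (SE 0.25, adjusted p = 0.0697 with limma).

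Batf3, which encodes the AP-1 family factor that cDC1 cells need, was the only tested member with a negative difference. It stood at 9.34, 9.97 and 9.45 in Gata3+/- arrays and at 8.77, 8.98 and 8.69 in Gata3-/- arrays. Its genotypes were separated by 0.36, and array 2 was the highest of each genotype, where Zbtb46, Irf4 and Fscn1 were lowest. The log2 difference of -0.78 (SE 0.19, 95% interval -1.23 to -0.32) did not pass with limma (adjusted p = 0.0759).

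Itgax, the gene of CD11c, the integrin chain used to recognise dendritic cells and also carried by some macrophages, stood at 10.71, 10.75 and 11.18 in Gata3+/- arrays and at 11.84, 11.01 and 11.37 in Gata3-/- arrays. The second Gata3-/- array lay below the third Gata3+/- array, so the genotypes overlapped. The difference was 0.53 with a 95% interval from -0.08 to 1.13 (limma adjusted p = 0.269), an interval that reaches from near 0 to more than 1 on the log2 scale.

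Cd24a encodes a small glycoprotein that is carried by cDC1 cells and also by immature B cells and other progenitors. Probe set 1448182_a_at stood at 10.98, 10.46 and 11.06 in Gata3+/- arrays and rose to 11.87, 12.49 and 12.03 in Gata3-/- arrays. The second array was the lowest in Gata3+/- and the highest in Gata3-/- cells, unlike its place for Zbtb46. The log2 difference was 1.30 (SE 0.23, 95% interval 0.73 to 1.86, limma adjusted p = 0.0445). The other probe sets, 1416034_at and 1437502_x_at, rose by 1.15 and 1.18 (SE 0.20 for each, limma adjusted p = 0.0436 and 0.0424), so all 3 were called, where 2.25% of all tested probe sets were called higher. They measure 1 transcript and are not independent. A name ending in x_at marks a probe set some of whose probes may also match other transcripts.

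Cd209a, a DC-SIGN family lectin gene of monocyte-derived cells and some cDC2 cells, was not measurable. Its probe set lay between 2.13 and 2.14 on all 6 arrays, far under the minimum of 4.

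Fscn1, whose product fascin bundles actin in the projections of mature dendritic cells, lay higher in Gata3-/- arrays at all 4 of its probe sets, and 0 of these passed with limma, although all 4 had an unadjusted p under 0.05. The brightest, 1416514_a_at, stood at 14.99, 13.71 and 15.00 in Gata3+/- arrays and at 15.82, 15.51 and 15.87 in Gata3-/- arrays, a log2 difference of 1.17 (SE 0.37, 95% interval 0.24 to 2.09, adjusted p = 0.137 with limma). Its values approached the highest of any probe set in the file, 16.24. The other 3 probe sets gave differences of 2.10, 2.17 and 2.30 (SE 0.59, 0.57 and 0.56, limma adjusted p from 0.0779 to 0.107). At 1448378_at, for example, levels of 10.73, 8.86 and 10.91 faced 12.58, 11.75 and 12.47. The second Gata3+/- array was the lowest at every probe set of the gene, and without it the difference of the brightest was 0.74 (adjusted p = 0.104).

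**Figure D2:**
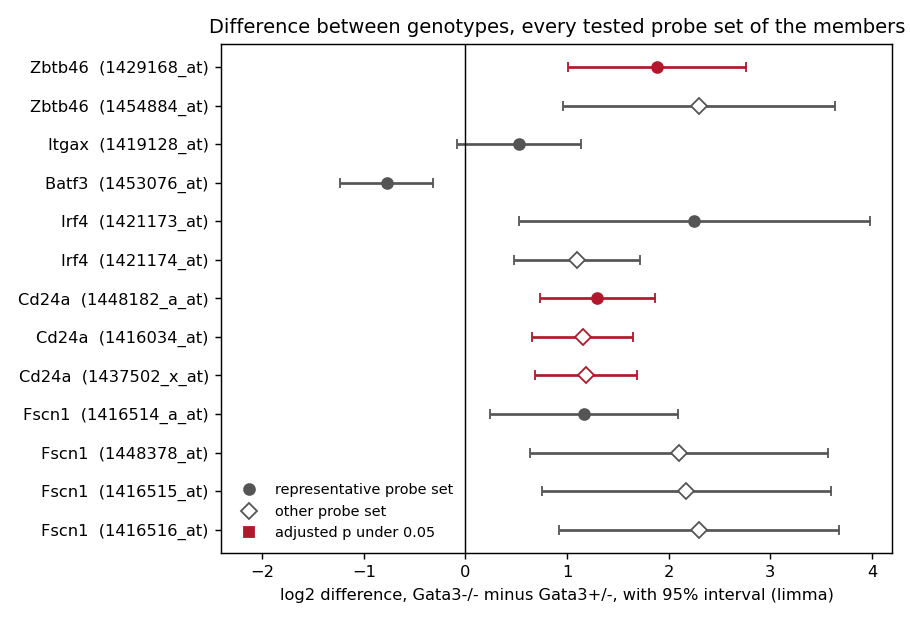
Each of the 13 tested probe sets of the members is drawn with its log2 difference, Gata3-/- minus Gata3+/-, and its 95% interval from limma; filled circles are the representative probe sets, open diamonds the others, and red marks an adjusted p under 0.05. Probe sets of a gene point the same way in every case, and the brightest Fscn1 probe set, at 1.17, lies below its other 3, at 2.10 to 2.30.

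An exact permutation test over the arrays gave p = 0.1 for the representative probe sets of Zbtb46, Batf3, Irf4, Cd24a and Fscn1 and p = 0.2 for Itgax (two-sided), where 0.1 is the smallest p that 3 arrays against 3 can give.

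The members did not vary together in every respect. Gata3+/- array 2 held the lowest value of Zbtb46, Irf4, Cd24a and Fscn1 and the highest of Batf3. Between the profiles over the 6 arrays, each centred on its own mean, the root mean square distance was smallest between Cd24a and Fscn1, 0.38 on the log2 scale, followed by Zbtb46 and Fscn1 at 0.45. It was largest between Batf3 and Irf4, at 1.83. Most tested markers of the OP9 stroma were also lowest on the arrays numbered 2. Pdgfrb was the exception, at 9.09 on Gata3-/- array 1 and 9.30 on Gata3-/- array 2. Of 8 such markers 5 were tested and 3 (Thy1, Lum and Dcn) lay under the minimum throughout, and the summed intensity of the 8 ran from 1513 to 6297 in Gata3+/- arrays and from 1285 to 6221 in Gata3-/- arrays, with array 2 lowest in each genotype. These ranges overlapped almost entirely between the genotypes, 0 of the 5 tested markers were called with limma and 0 had an unadjusted p under 0.05, Pdgfra and Col3a1 having the smallest p and differences of -0.89 and -0.87. Their part in the low values of Gata3+/- array 2 was not tested. Without both arrays numbered 2 the differences were 1.77 for Zbtb46, 0.93 for Cd24a, 1.71 for Irf4, 0.85 for Fscn1 and -0.67 for Batf3, and 0 members were called with limma (5 of 6 had an unadjusted p under 0.05). The share of all genes with such a p was not counted for this fit. It was 2043 to 2484 of 10302 when 1 array was left out.

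**Figure D3:**
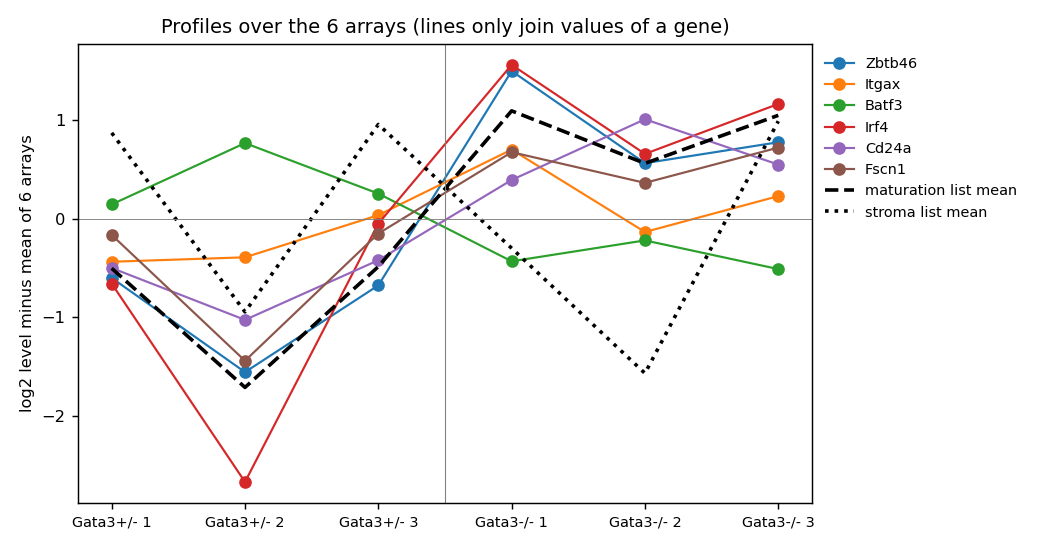
For each of the 6 arrays the log2 level of every tested member is drawn as the distance from that gene's mean over the arrays, beside the mean of the 21 tested maturation genes (dashed) and of the 5 tested stroma markers (dotted). Irf4, Zbtb46 and Fscn1 dip on Gata3+/- array 2 with the maturation list, Batf3 peaks there, and the mean of the stroma markers is lowest on array 2 of each genotype.

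The genes with the most similar profiles were sought among all tested genes by the same distance over the 6 arrays. Nearest to Zbtb46 was Tnfrsf4, the gene of the costimulatory receptor OX40, at a distance of 0.09, followed by Cygb and Ccser2. Nearest to Irf4 were Stap2, the arginase gene Arg2 and the cadherin gene Cdh2, at 0.15 to 0.20. Cd24a lay nearest to Eno3, a muscle enolase gene that is also on the list of maturation genes, at 0.15, then to Best1 and Gpat2. Fscn1 lay nearest to Fas, a death receptor gene, then to Fah and S100a10, at 0.14 to 0.16. Itgax lay nearest to Mob3b, Tmem154 and Zswim8 and Batf3 to Ttc5, Nfxl1 and Slc9a9, at distances of 0.06 to 0.10. These distances describe 6 arrays and carry no test.

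Among 14 further transcription factors of dendritic cell development, all tested, 2 were called and both fell. Without Gata3+/- array 1, or without Gata3+/- array 2, 0 of all genes tested were called. Neither these calls nor those of the lists below held there. Irf8, which directs cDC1 and plasmacytoid cells, fell from 12.41, 12.51 and 12.61 to 11.99, 11.69 and 11.85, a log2 difference of -0.67 (SE 0.11, limma adjusted p = 0.0383). Among all genes tested 2.41% were called lower. Bcl6, a repressor used in several lymphoid and dendritic lineages, fell by 0.83 on the log2 scale (SE 0.12, adjusted p = 0.0356 with limma). Relb, the NF-kappaB subunit tied to dendritic cell maturation, stood at 7.92, 6.38 and 8.11 against 9.69, 8.86 and 9.35 and did not pass (limma adjusted p = 0.0996). Id2, Runx3 and Zeb2 had genotypes that did not overlap, with differences of 0.26, 0.81 and -0.60 that were not called. Of the 14 genes 3 lay higher and 3 lower without overlap, where 16.9% and 16.7% of all genes tested did so. The list's median was 0.01, with 7 positive and 7 negative differences. Batf3 and Irf8, which act together in the cDC1 branch, both had negative differences, of which that of Irf8 passed. The 7 tested genes of the cDC1 list did not share this direction, with 4 positive and 3 negative differences and a median of 0.25.

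Of 7 receptor genes 1 was called, where 5.27% of all genes tested were called in either direction. Kit, the stem cell factor receptor gene, rose by 0.96 on the log2 scale (SE 0.18, limma adjusted p = 0.0477). Flt3, whose ligand was in the medium and which conventional dendritic cells depend on, stood at 3.53, 4.28 and 5.09 in Gata3+/- arrays and at 5.90, 5.62 and 5.36 in Gata3-/- arrays, and was not called (difference 1.32, SE 0.40, adjusted p = 0.124 with limma). The genotypes did not overlap for Flt3, and 1 of its Gata3+/- arrays lay under the minimum. Ltbr, the lymphotoxin beta receptor gene, had a difference of -0.49 that was not called. The list's median was 0.12.

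The 2 branches of conventional dendritic cells were only partly measurable. Of 12 cDC1 genes named on the array 7 were tested, and Xcr1, the chemokine receptor gene that defines cDC1 cells, lay between 2.07 and 2.19 on all arrays, with Cd8a and Snx22 also under the minimum throughout. Ly75, the gene of the antigen uptake receptor DEC-205, rose from 6.24, 5.55 and 6.64 to 8.30, 7.74 and 8.73 (difference 2.11, SE 0.36, limma adjusted p = 0.0428). Naaa, a lysosomal amidase gene, fell by 1.88 on the log2 scale (adjusted p = 0.0283 with limma). Itgae and Wdfy4 had differences of 0.87 and 0.75 and Cadm1 of -0.73, without overlap of the genotypes and without a call. The median was 0.25. Of all genes tested 2.86% were called higher and 2.41% lower, and 16.9% and 16.7% lay higher and lower without overlap. Of 7 cDC2 genes named 5 were tested, 0 were called with limma (2 had an unadjusted p under 0.05), and the lectin genes Clec10a and Mgl2 lay under the minimum on every array. Ltb, the lymphotoxin beta gene, had the largest cDC2 difference, 1.16 (adjusted p = 0.0986 with limma), Itgam had one of -0.36 and Clec4a2 of 0.13, and the median was 0.13.

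Of 13 tested surface and metabolic genes shared by conventional dendritic cells 2 rose, 0 fell and 11 were not called. The share of all genes tested that were called higher was 2.86%. P2ry10, a lymphoid G protein-coupled receptor gene, rose from 8.14, 7.10 and 8.56 to 10.83, 10.47 and 10.85, and Rab30, a small GTPase gene, rose by 1.35 on the log2 scale (limma adjusted p = 0.0344 and 0.0349). Gpr132, a lysophospholipid-sensing receptor gene, had a difference of 2.65, Ap1s3 of 0.70, Dpp4, the peptidase CD26, of 0.65 and Hmgn3 of 0.59, while Btla, an inhibitory receptor gene, had one of -1.21. The genotypes of these 5 genes did not overlap and none was called. Of all genes tested 16.9% lay higher and 16.7% lower without overlap. The median of the list was 0.43. Ass1, H2-Eb2 and Slamf7 lay under the minimum on all arrays.

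Genes that dendritic cells induce on maturation and migration had higher means in Gata3-/- arrays. All 21 tested genes had positive differences, 8 of them called, and 18 had genotypes that did not overlap, where 2.86% of all genes tested were called higher and 16.9% lay higher without overlap. The list's median was 1.43, against -0.02 for all genes tested. Like the members, the list was chosen with earlier results of these data known, so its counts are not an independent test. The costimulatory ligand genes Cd80 and Cd86 rose by 1.65 and 1.15 on the log2 scale, Cd83 by 1.42 and Cd274, the gene of the inhibitory ligand PD-L1, by 1.41 (limma adjusted p from 0.0306 to 0.0407). Il12b, which encodes a subunit of IL-12, stood at 5.74, 4.05 and 5.60 against 9.20, 8.44 and 8.86, and rose by 3.70. Ccl5, a chemokine gene, rose by 1.30, Eno3 by 1.43 and Samsn1, a signalling adaptor gene, by 1.18 (adjusted p from 0.0283 to 0.0342 for these 4 genes with limma).

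Several of the best known maturation genes did not pass. In some of them, such as Ccr7 and Ccl22, Gata3+/- array 2 stood apart from the rest of its group. Ccr7, the receptor gene that guides dendritic cells to lymph nodes, stood at 13.10, 10.62 and 12.95 in Gata3+/- arrays and at 14.83, 14.35 and 14.74 in Gata3-/- arrays (difference 2.42, SE 0.69, limma adjusted p = 0.108). Ccl22, a chemokine gene, was likewise lowest on array 2 of each genotype, with 13.03, 10.51 and 13.11 against 14.47, 13.85 and 14.50. Cd40, Traf1, Socs2, Ccl17, Nudt17, Slco5a1, Marcksl1 and Tmem123 also had no overlap and no call, with differences from 0.37 for Tmem123 to 3.29 for Nudt17. Il15ra, Nfkb2 and Birc3 overlapped. Il4i1, Ido1 and Pdcd1lg2 lay under the minimum on every array.

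Of the 21 maturation genes 4, Ccr7, Ccl5, Il12b and Eno3, lie on chromosome 11, where the median difference of all 889 tested genes was 0.33. Of these 4, 3 were called, beside 96 of all 889 tested genes of that chromosome and 5.27% of all genes tested. On the other chromosomes 5 of 17 were called and the median was 1.42. No member lies on chromosome 11. Leaving out any 1 array, or both arrays numbered 2, left 0 maturation genes called with limma, while 15 to 20 of 21 had an unadjusted p under 0.05. In those of these fits that left out 1 array, 2043 to 2484 of all 10302 genes tested had such a p. All 21 kept a positive difference in each of these 7 fits. For the 18 genes without overlap of the genotypes, leaving out arrays cannot turn the sign.

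Of 8 tested genes of MHC class II presentation 0 were called with limma (3 had an unadjusted p under 0.05). Differences were positive for 7, and the median was 0.22. For 3 the genotypes did not overlap, all higher in Gata3-/- arrays, where 16.9% of all genes tested did the same. H2-Aa and H2-Ab1, the chains of the I-A molecule, had differences of 0.13 and 0.20. H2-DMa and H2-DMb2, of the peptide-loading molecule H2-DM, had differences of 1.14 and 1.13 without overlap of the genotypes (adjusted p = 0.0682 and 0.0589 with limma), as did Cd74, the invariant chain gene, at 0.46.

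**Figure D4:**
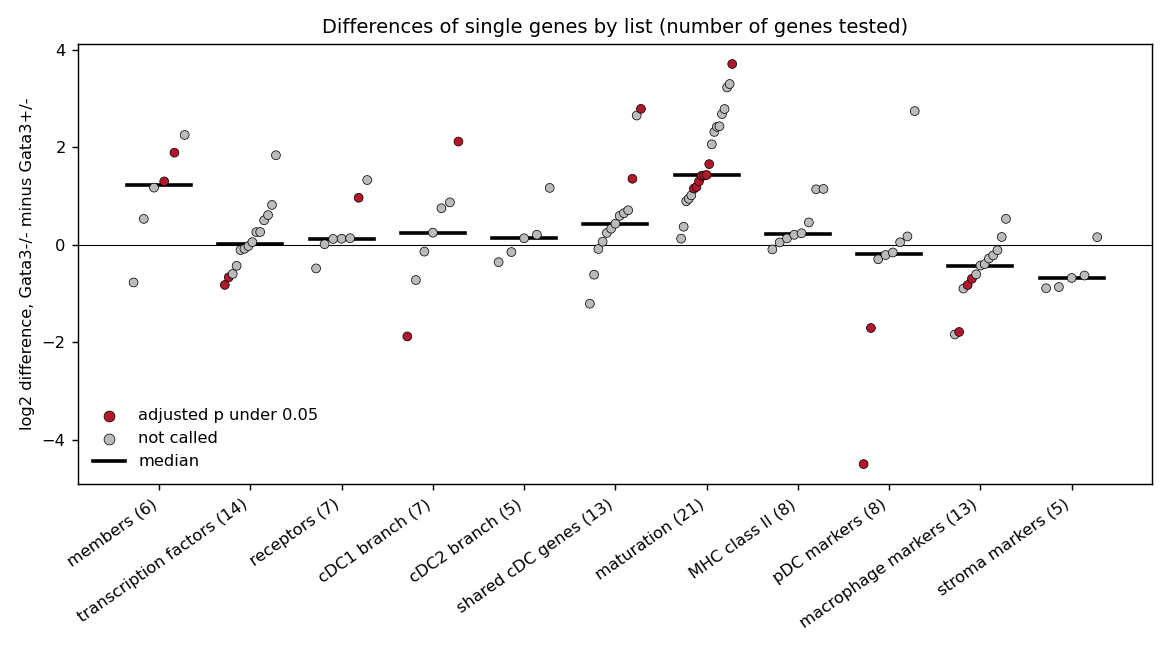
Each point is 1 tested gene, placed by its log2 difference, Gata3-/- minus Gata3+/-, in the list named under it with the number of genes tested; red points have an adjusted p under 0.05 and the bar is the median. The maturation list lies wholly above 0 with a median of 1.43, the transcription factors straddle 0, and the macrophage markers lie mostly below it, with a median of -0.43. The lists were chosen with earlier results of these data known.

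Markers of other cell types were read beside the members. Plasmacytoid dendritic cells are the nearest relatives: of 8 tested markers 2 fell, Siglech, from levels of 7.59, 9.02 and 7.50, by at least 16.4-fold, as its Gata3-/- arrays lay under the minimum, and Pacsin1 by 1.71 on the log2 scale, 6 were not called, and the median was -0.19. Bst2, Tcf4, Tlr9 and Spib had no overlap of the genotypes, with differences of -0.21, -0.16, 0.17 and 2.74 that were not called. The summed intensity of the 11 named markers ran from 17411 to 20003 in Gata3+/- and from 13678 to 17466 in Gata3-/- arrays, and Ccr9, Ly6d and Cox6a2 lay under the minimum throughout. Of 13 tested monocyte and macrophage markers 3 fell and 0 rose: the chemokine receptor genes Ccr2 and Cx3cr1 by 1.79 and 0.83 and Fcgr1, the high-affinity Fc receptor gene, by 0.70 on the log2 scale. Their median was -0.43, with 11 negative and 2 positive differences. Where 16.7% and 16.9% of all genes tested lay lower and higher without overlap, 9 of these markers did so lower and 1 higher. Among those not called, the mannose receptor gene Mrc1 had a difference of -1.84, the endotoxin co-receptor gene Cd14 of -0.90, the complement genes C1qc and C1qb of -0.61 and -0.43, Adgre1, an adhesion receptor gene that marks macrophages, of -0.40, Csf1r, the M-CSF receptor gene, of -0.22, and Cd68, a lysosomal glycoprotein gene, of 0.53. The summed intensity of these 13 ran from 127250 to 145999 in Gata3+/- and from 89866 to 106927 in Gata3-/- arrays. The share of all genes tested that were called lower, to set beside the calls of both lists, was 2.41%. Csf1r lay at 14.24 or above on every array. The part of these populations in the differences of the members was not tested.

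Most markers of the labelled cell type, T-lineage progenitors, were under the minimum. Of 7 named T-lineage markers 6, including Cd3e, Bcl11b and Ptcra, lay under the minimum on all arrays, and the summed intensity of the 7 ran from 53.4 to 70.4 in Gata3+/- and from 81.6 to 140 in Gata3-/- arrays. Cd5, the only T-lineage marker tested, had a difference of 1.44 that was not called. Of 6 B-lineage markers 4 were under the minimum throughout (summed intensity 783 to 969 and 589 to 836), of 6 mast cell markers 4 (416 to 884 and 399 to 1631) and of 7 granulocyte markers 4 (778 to 1302 and 503 to 2287). With limma 0 of the 7 tested genes of these last 3 lists were called (1, S100a9, had an unadjusted p under 0.05). The differences were -0.35 for Cd79b and -0.33 for Ebf1, of B cells, 0.50 for Gata2 and 0.14 for Cpa3, of mast cells, and 2.63 for S100a9 and 2.37 for S100a8, of granulocytes. Gata3 itself differed by 0.05 (95% interval -0.80 to 0.89), and since the disrupted part is not given, its probe set does not check the genotypes. The number of probe sets that reached the minimum ran from 19977 to 20124 per array.

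The genes beside the members on their chromosomes were read too, since the genes of chromosome 11 leaned upward as a group. Among the 10 tested genes on each side of Zbtb46, 0 of 20 were called, the differences ran from -0.18 to 0.35 and the median was 0.05, against 1.89 for Zbtb46. Around Fscn1 and Cd24a the medians were -0.09 and -0.03, with 1 of 20 called lower in each case. Crybg1, near Cd24a, had a difference of 1.76, above the 1.30 of Cd24a, and was not called. Around Itgax the median was -0.12 with 1 called lower. Batf3 lies next to Nsl1, a kinetochore gene, which fell by 0.60 on the log2 scale, and the median of its 20 neighbours was -0.06. Irf4 lies near a cluster of clade B serpin genes in which Serpinb9b rose by 3.56, while the median of its 20 neighbours was 0.02.

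**Figure D5:**
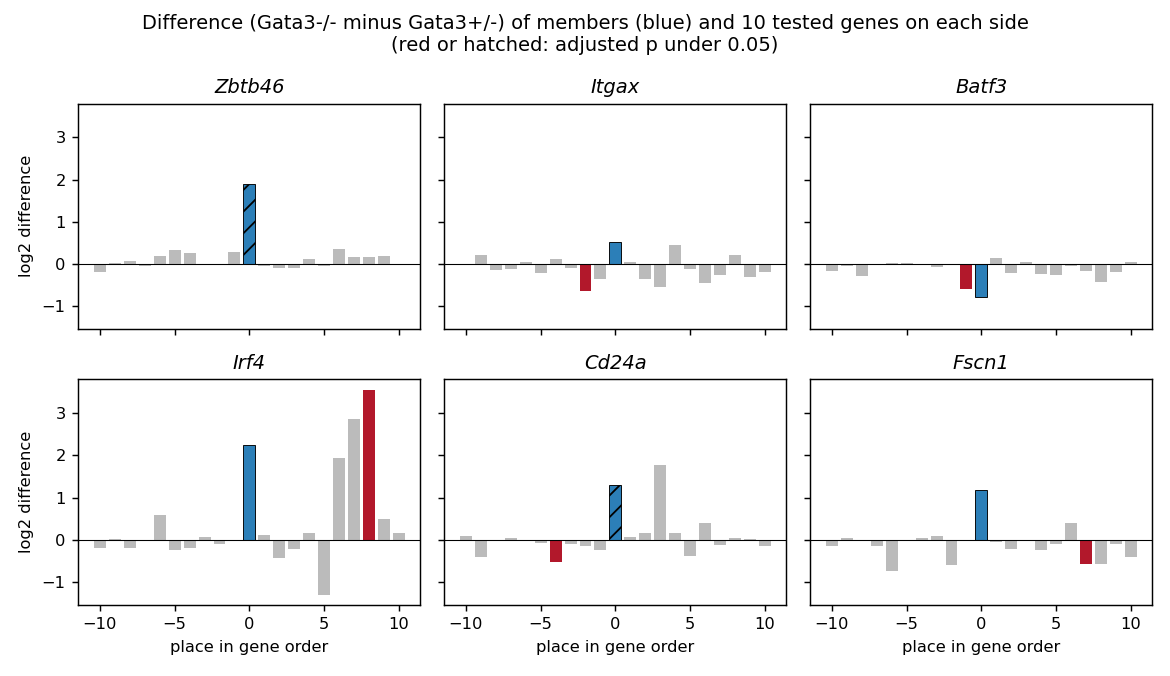
For each tested member (blue bar at 0) the log2 differences of the 10 tested genes on either side in chromosome order are drawn as bars, red where the adjusted p was under 0.05; a hatched member bar was called. Zbtb46 and Fscn1 stand above all their neighbours, and Cd24a above all but Crybg1 at place 3, whose difference of 1.76 was not called. The medians of these neighbours lie between -0.09 and 0.05. Irf4 has tall bars among the serpin genes at places 6 to 8.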

How the data were processed

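The values deposited by the authors are linear intensities for 45101 probe sets on 6 arrays, made with GC-RMA per the labels; the operating software GCOS is named in the submitters' processing notes, and its version and settings are not given here in any source used. Their log2 was taken with no further normalization. The 64 control probe sets were left out, and probe sets with a log2 value of 4 or more, that is an intensity of 16, on 3 or more arrays were kept, 20102 in number. Under GC-RMA low values form a floor, so dim probe sets carry little information; precision is limited by how few arrays there are. Symbols were read from the annotation of the platform (34958 probe sets with 1 symbol, 932 with several, 9211 with none); 34754 matched RefSeq (GRCm38.p6) by gene identifier and 0 symbols changed. A gene was represented by its probe set of highest mean over the 6 arrays. Genotypes were taken from the titles and compared with limma 3.58.1 in R 4.3.3 (two-sided, functions lmFit and eBayes), subtracting Gata3+/- from Gata3-/-, with Benjamini-Hochberg adjustment over all probe sets tested and a threshold of 0.05. The fit was tested on simulated data. Plots were made with matplotlib 3.10.9 in Python 3.11.15. The members and the gene lists were chosen with earlier results of these data known. The text names the members, Gata3, the called genes and the tested genes without overlap of the genotypes in each list (otherwise the 2 with the smallest p), defining markers, and the 3 genes nearest in profile to each member with a range of at least 1; other genes were named after their values were seen. Alternatives were no filter, a minimum of 6, centring on the median, quantile normalization, array weights, robust eBayes with a variance trend, a replicate block, averaged probe sets, and leaving out arrays.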

Additional observations from a re-analysis of the deposited data

How the results depend on the processing

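Signs of the 6 tested members were kept in all 15 alternatives run for each, and most of these could not have changed them. No filter, a minimum of 6, the variance trend and the replicate block leave the difference itself unchanged. For members whose genotypes do not overlap, leaving out arrays cannot turn the sign. Zbtb46 and Cd24a were each called in 6 of the 15, and the other members in 0 (limma, smallest adjusted p 0.0552 for Batf3). Main counts were 878 probe sets, 543 genes, 2 members and 8 maturation genes (the last count was recomputed after the data had been seen). Without a filter they were 166, 98, 0 and 0, with 5 members and 18 maturation genes at an unadjusted p under 0.05, and 0.137 and 0.117 as the limma adjusted p of Zbtb46 and Cd24a. With a variance trend and robust eBayes 1349 probe sets and 824 genes were called, and with array weights 2075 and 1224. Without both arrays numbered 2 the counts were 4 probe sets, 3 genes, 0 members and 0 maturation genes. Leaving out each array in turn gave 0 to 9 probe sets, 0 to 4 genes, 0 members and 0 maturation genes, with 3 to 6 members reaching an unadjusted p under 0.05 from the smaller number of arrays. Of all 10302 genes tested 2043 to 2484 did so in these fits. Averaging the probe sets of a gene left 1 member called, Cd24a, with Zbtb46 at an adjusted p of 0.0536 in limma and the difference of Fscn1 at 1.93. With the replicate block 498 probe sets, 298 genes and 1 member, Zbtb46, were called, and Cd24a had a limma adjusted p of 0.0852. Deviations of same-numbered arrays correlated by 0.005, 0.695 and 0.429, and Gata3+/- array 1 correlated better with Gata3-/- array 3 (0.424), so a shared number is not taken as a pairing. For all other settings the counts stayed within 1.5 times. Signal limits Cd209a, at the floor on all arrays, and Irf4, under the minimum on 1.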

Other observations

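Spib, an ETS factor gene of plasmacytoid dendritic cells and B cells, differed in sign from the other markers of its list with sizable differences. It stood at 5.47, 3.50 and 5.62 in Gata3+/- arrays and at 7.87, 7.16 and 7.77 in Gata3-/- arrays, lowest on Gata3+/- array 2 like Irf4 and Zbtb46, with a log2 difference of 2.74 (SE 0.60, limma adjusted p = 0.0652). Cd5, a surface receptor gene of T cells and some B cells, stood at 4.50, 4.50 and 5.24 against 6.26, 6.71 and 5.59 (limma adjusted p = 0.0764).

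Of the serpin genes near Irf4, Serpinb9 and Serpinb6b had differences of 2.85 and 1.94 that were not called and Serpinb1a one of -1.30, while Serpinb9b was called. Crybg1, near Cd24a, had a difference of 1.76 that was not called.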
